A study of Mus musculus with 52 samples.

Results

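The genes described here were 10 liver genes known to be induced by fasting or by glucocorticoids, namely Ppp1r3c, Ddit4, G6pc, Tat, Pck1, Sgk1, Fkbp5, Tsc22d3, Irs2 and Ppargc1a. They were taken by name, as all probe sets whose single gene symbol in the array annotation was one of the 10, which gave 19 of 22690 probe sets. Expression was measured by Affymetrix microarray in total RNA extracted with Trizol from the liver of male B6C3F1 mice, which were 9 weeks old when they received a single intraperitoneal dose. Each of the 52 arrays held RNA pooled from 5 mice, so the spread between animals within a pool was not measured. The 6 genotoxic chemicals were compared with a vehicle control after 4 h, 20 h, 14 days and 28 days, 1 array each. The aromatic ones were AAT (o-aminoazotoluene) at 300 mg/kg, DMBA (7,12-dimethylbenz[a]anthracene) at 20 mg/kg and DBP (dibenzo[a,l]pyrene) at 6 mg/kg, which shared 1 olive oil control per time. The alkylating ones were ENU (N-ethyl-N-nitrosourea) at 150 mg/kg, DMN (dimethylnitrosamine) at 5 mg/kg and DPN (dipropylnitrosamine) at 250 mg/kg, and each had its own control. The non-genotoxic chemicals, EtOH (ethanol) at 1000 mg/kg and PB (phenobarbital) at 30 mg/kg, shared 1 saline control per time, so there were 32 ratios of a chemical to its control over 20 vehicle control arrays. The sources used here do not give feeding or the hour of day at sampling.

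Between meals the liver keeps blood glucose up, first from glycogen and then by gluconeogenesis from lactate and amino acids. Glucagon, acting through cAMP and the factor CREB, and glucocorticoids, acting through the glucocorticoid receptor, switch on genes of this program, and insulin switches many of them off through FOXO1. Glucocorticoids also rise with stress and with the time of day, and the receptor then induces genes that feed back on it, such as Fkbp5, and genes that dampen inflammation, such as Tsc22d3.

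The stretches of 250 bases before the start sites were searched for short motifs of these pathways on both strands (RefSeq, build GRCm38.p6, 32851 windows of all genes, of which 17 belonged to the members). A match is a description of the letters and not a site. The glucocorticoid receptor half-site AGAACA stood in 4 windows of Sgk1 and Tsc22d3, against 16.1% of all windows. The cAMP response half-site TGACG stood in windows of Pck1, Sgk1, Tsc22d3 and Ppargc1a, against 17.8% of all windows. The E-box CACGTG, which clock factors bind, stood in windows of Ppp1r3c, Sgk1, Fkbp5 and Irs2, against 6.02%. The insulin response core TGTTTTG stood in windows of G6pc and Irs2, against 5.56%. The FOXO motif TGTTTAC (3.17% of all windows) and the full cAMP response element TGACGTCA (1.55%) stood in none of the 17. Pairs of half-sites, AGAACA followed by 3 bases and TGTTCT, stood in 3 of the 32851 windows (0.00913%), and 1 of these was a window of Sgk1. Windows of Ppp1r3c, Ddit4 and G6pc, and this window of Sgk1, are shown 5′ to 3′ on the strand of the gene, with the matched motifs in capitals.
Ppp1r3c, chr19:36736605-36736854, minus strand, E-box: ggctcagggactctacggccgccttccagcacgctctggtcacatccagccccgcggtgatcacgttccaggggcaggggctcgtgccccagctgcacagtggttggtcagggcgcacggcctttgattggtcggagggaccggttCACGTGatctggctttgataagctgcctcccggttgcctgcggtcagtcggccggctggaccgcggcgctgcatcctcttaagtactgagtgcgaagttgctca
Ddit4, chr10:59951771-59952020, minus strand, no match: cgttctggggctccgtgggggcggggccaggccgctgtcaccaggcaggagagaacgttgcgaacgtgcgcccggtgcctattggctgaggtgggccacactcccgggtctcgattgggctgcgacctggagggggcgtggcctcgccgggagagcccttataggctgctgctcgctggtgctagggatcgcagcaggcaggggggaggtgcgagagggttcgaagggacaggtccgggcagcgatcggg
G6pc, chr11:101367466-101367715, plus strand, insulin response core: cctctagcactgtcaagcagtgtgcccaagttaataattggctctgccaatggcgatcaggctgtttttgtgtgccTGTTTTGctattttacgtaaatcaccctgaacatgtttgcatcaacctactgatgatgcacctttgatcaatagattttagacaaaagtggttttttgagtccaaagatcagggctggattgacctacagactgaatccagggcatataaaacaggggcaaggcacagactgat
Sgk1, chr10:21993640-21993889, plus strand, E-box overlapping a half-site, then the paired half-sites: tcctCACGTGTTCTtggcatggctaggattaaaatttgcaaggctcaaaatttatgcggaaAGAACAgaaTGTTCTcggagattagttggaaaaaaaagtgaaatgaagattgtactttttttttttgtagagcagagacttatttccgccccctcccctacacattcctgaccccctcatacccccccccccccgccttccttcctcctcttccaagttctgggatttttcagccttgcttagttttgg
In these windows the E-box of Ppp1r3c began 104 bases and the insulin response core of G6pc 174 bases before the start site.

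Each array was divided by its median, since the deposited medians ran from 17.9 to 205 and then brought back to the scale of their mean. A signal under 32.5 (log2 5.02) was set to that floor, so an equal signal on 2 arrays may mean only that neither was measured. Of 22626 probe sets that are not Affymetrix controls, 18349 were above the floor in at least 4 arrays, among them all 19 of the members. Hepatocyte markers were all well represented, and none of the 8 was mostly at the floor. The EtOH array at 20 h stood apart, with a log2 3′ to 5′ signal ratio of 3.13 for Gapdh, against -0.51 to 0.34 on the other 51 arrays. The libraries labelled saline control and PB at 20 h went against their labels, since Cyp2b10, which phenobarbital induces, had a log2 signal of 11.48 in the control and 8.25 in PB, while the other 4 controls of that time lay between 6.19 and 7.26. Values of EtOH and PB at 20 h, and those of the saline library as 1 of the 5 controls of that time, are to be read with that in view. Without that control the difference of the controls between 4 h and 20 h was -1.16 for Fkbp5 (adjusted p = 0.239) and 0.79 for G6pc (adjusted p = 0.605), neither called with or without it. Probe sets of a gene are numbered here by mean signal, highest first. Below, a level is the log2 signal of the first probe set, a ratio is the log2 ratio to the chemical's own control of the same time, and levels of different genes are not compared. Fits were made with limma. Those that compared chemicals with controls had the control set as a block, and the fit of the 20 controls by time had none. In the text a difference is named a call where its p, adjusted by Benjamini-Hochberg over all 18349 probe sets, was under 0.05.

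At 4 h several members stood above their controls with every genotoxic chemical. Ratios were above 0 with all 6 for 7 of the 19 member probe sets, in Ppp1r3c (both probe sets), Ddit4, G6pc, Tat, Fkbp5 (1 of 2) and Tsc22d3 (1 of 3), against 3.41% of all probe sets. No difference between the genotoxic chemicals and their controls was called at 4 h in the fit of the 13 arrays of that time (0% of all probe sets, limma). At an unadjusted p under 0.05 there were 1785 of 18349 probe sets (9.73%), and 9 of the 19 of the members. A fit of all 52 arrays together, which takes the spread from all times, called 0.0599% of all probe sets, and among the members only the first probe set of Ppp1r3c.

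**Figure D1:**
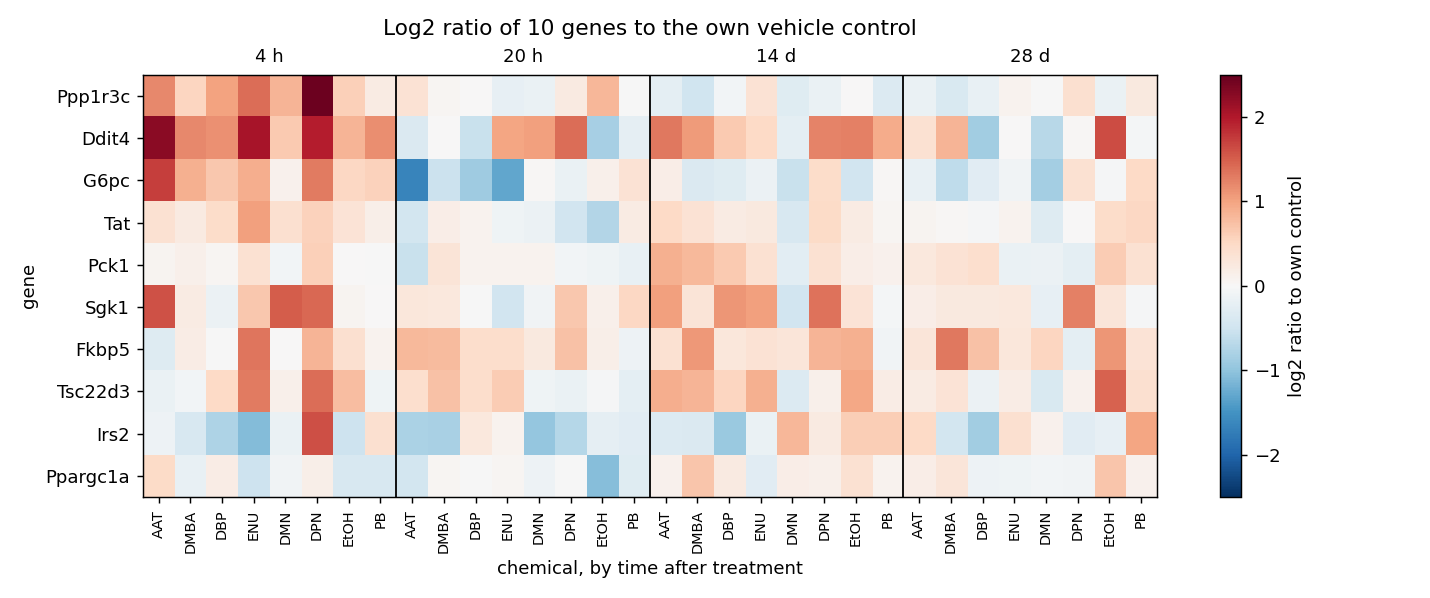
Log2 ratio of each of the 8 chemicals to its own vehicle control (columns, grouped by time) for the first probe set of each of the 10 members (rows), 1 array of pooled RNA per cell of the map. At 4 h the Ppp1r3c, Ddit4, G6pc and Tat rows are positive with all 8 chemicals.

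Ppp1r3c encodes a subunit that brings protein phosphatase 1 to glycogen and so favours glycogen synthesis. Of the members at 4 h, Ddit4 had the largest genotoxic mean and Ppp1r3c the largest single ratio, with DPN. Levels of Ppp1r3c in the 5 controls were 9.30 (olive oil), 9.71 (ENU control), 9.88 (DMN control), 9.72 (DPN control) and 9.41 (saline). Its levels after the genotoxic chemicals ran from 9.83 with DMBA to 12.17 with DPN, with a median of 10.61. With 5 chemicals the level was above all controls and with DMBA it lay among them, so the groups overlapped. The ratios were 1.20 with AAT, 0.53 with DMBA, 1.01 with DBP, 1.40 with ENU, 0.84 with DMN and 2.45 with DPN. Those with AAT, DMBA and DBP all rested on the shared olive oil control, the lowest of the 5. EtOH gave 0.59 and PB 0.21, both also above 0. The genotoxic chemicals were on average higher by 1.35 (SE 0.27, limma adjusted p = 0.415), or 1.55 (SE 0.31, adjusted p = 0.415) in the second probe set. The fit of all 52 arrays, which takes its spread from all times, gave the same 1.35 with an SE of 0.19 and a limma adjusted p of 0.00189. The genotoxic chemicals exceeded the non-genotoxic by 0.95 (SE 0.56, adjusted p = 1), so a difference between the classes was not shown.

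Ddit4 encodes an inhibitor of the growth kinase complex mTORC1 and responds to glucocorticoids, low oxygen, energy stress and DNA damage. Its control levels at 4 h were 7.04, 6.20, 7.16, 6.98 and 7.58 in the order given above. The genotoxic levels were 9.29 with AAT, 8.24 with DMBA, 8.17 with DBP, 8.26 with ENU, 7.81 with DMN and 8.95 with DPN. EtOH stood at 8.43 and PB at 8.73. All treated arrays were thus above all controls, and no other member probe set had its 6 genotoxic levels above every control at 4 h, a separation that 0.294% of all probe sets had. The ratios were 2.25, 1.20, 1.14, 2.07, 0.66 and 1.97 for the genotoxic chemicals, 0.85 for EtOH and 1.15 for PB. The ratio with ENU rested on the lowest control of the time. The genotoxic mean was 1.55 (SE 0.30, adjusted p = 0.415) and the non-genotoxic mean 1.00 (SE 0.54, adjusted p = 1). Their difference was 0.55 (SE 0.62, adjusted p = 1), and it turned to -0.13 in a fit that ignored which control belonged to which chemical.

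**Figure D2:**
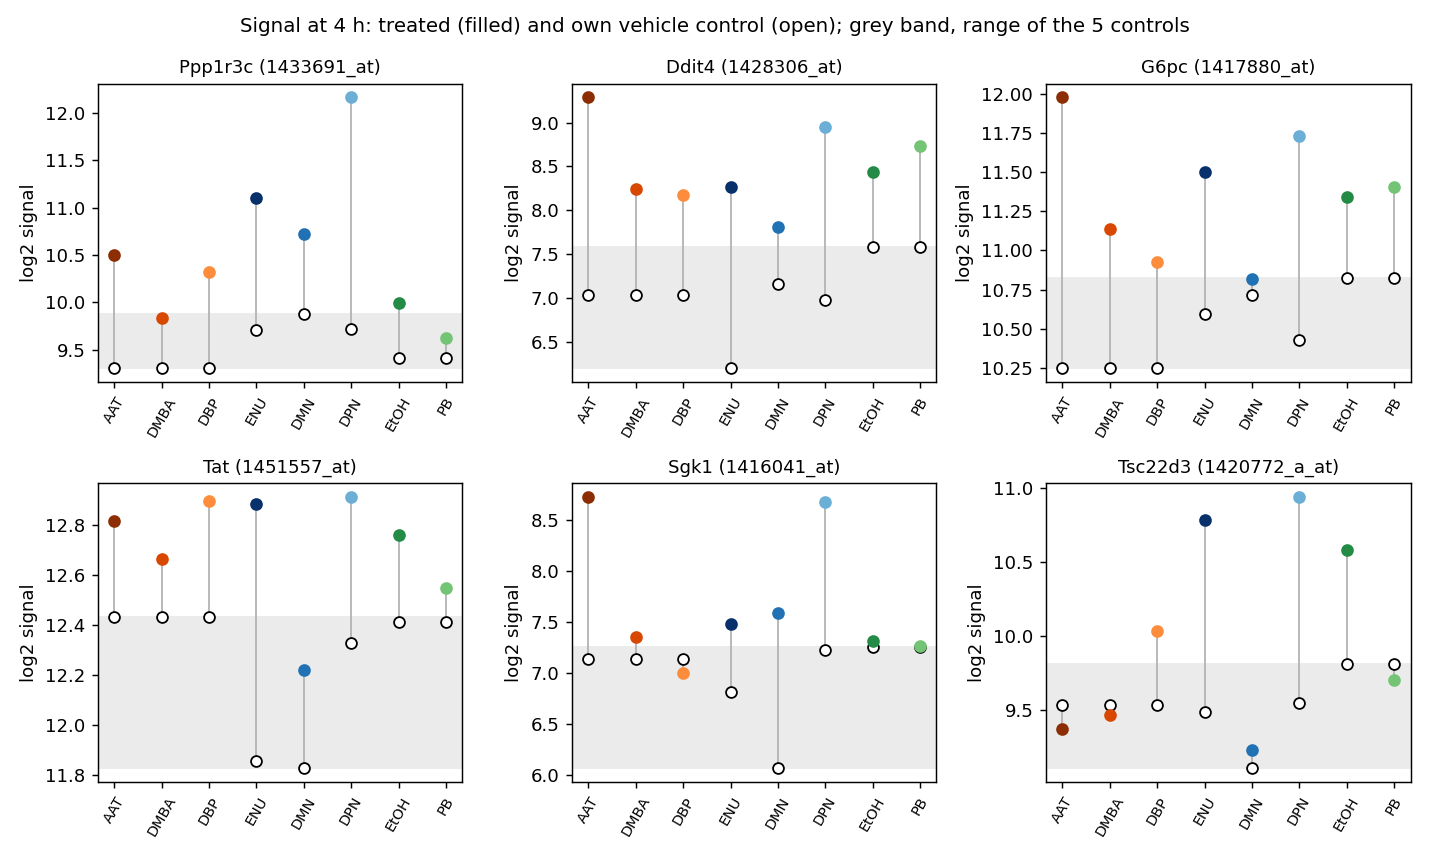
Log2 signal at 4 h of the first probe set of Ppp1r3c, Ddit4, G6pc, Tat, Sgk1 and Tsc22d3 in 6 panels of 1 gene each (vertical axis in log2 signal), with a filled point per chemical, an open point for its own vehicle control and a grey band over the range of the 5 controls, each point 1 array of pooled RNA. Ddit4 is the panel in which all treated points (7.81 to 9.29) lie above all controls (6.20 to 7.58).

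The next 3 members act in gluconeogenesis or amino acid breakdown. G6pc, glucose-6-phosphatase, releases free glucose as the last step of glucose output. Its controls at 4 h were at 10.25, 10.60, 10.71, 10.43 and 10.83, and its genotoxic levels ran from 10.82 with DMN to 11.98 with AAT with EtOH at 11.34 and PB at 11.40. Only the DMN array overlapped the controls. Ratios were 1.73 with AAT, 0.89 with DMBA, 0.68 with DBP, 0.90 with ENU, 0.10 with DMN and 1.30 with DPN, and the genotoxic mean was 0.88 (SE 0.25, adjusted p = 0.44). Tat, tyrosine aminotransferase, is a classic glucocorticoid target of the liver. Its controls were at 12.43, 11.86, 11.83, 12.33 and 12.41 and its genotoxic levels between 12.22 (DMN) and 12.91 (DPN), so DMN lay within the controls. The genotoxic mean ratio of Tat was 0.57 (SE 0.12, adjusted p = 0.415), with ENU highest at 1.03. Pck1, phosphoenolpyruvate carboxykinase, makes the first committed step of gluconeogenesis. Its controls were at 11.53, 11.69, 11.54, 11.32 and 11.65, and the genotoxic levels, 11.48 to 12.07, overlapped them. Only ENU (0.38) and DPN (0.60) had Pck1 ratios above 0.12, and the genotoxic mean was 0.23 (SE 0.10, adjusted p = 0.511).

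Sgk1, Fkbp5 and Tsc22d3 are direct targets of the glucocorticoid receptor in many cell types. Sgk1, a kinase best known for regulating sodium transport, had control levels of 7.14, 6.81, 6.07, 7.23 and 7.25 at 4 h. With AAT its level was 8.72, with DPN 8.67 and with DMN 7.59, and the other 3 genotoxic levels were 7.35 (DMBA), 7.00 (DBP) and 7.48 (ENU). AAT and DPN stood well above all controls, and DBP lay among them. Its ratios were 1.58 with AAT, 1.52 with DMN and 1.44 with DPN, and the ratio with DMN rested on the lowest control of the time. The genotoxic mean was 0.99 (SE 0.36, adjusted p = 0.477).

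Fkbp5, a co-chaperone that holds the glucocorticoid receptor in a state of low affinity, had widely spread controls at 4 h, at 10.29, 8.91, 8.70, 9.48 and 9.92. Genotoxic levels ran from 8.72 (DMN) to 10.48 (DMBA) and overlapped that range. ENU gave a ratio of 1.35 and DPN 0.85, whereas AAT gave -0.32. The genotoxic mean was 0.48 (SE 0.24, adjusted p = 0.546). Tsc22d3, which encodes the anti-inflammatory protein GILZ, had controls at 9.53, 9.49, 9.11, 9.55 and 9.81. Its genotoxic levels were highest with DPN (10.94) and ENU (10.78), next with DBP (10.03), and from 9.23 to 9.47 with the other 3, which lay among the controls, and EtOH reached 10.58. Ratios were 1.39 with DPN, 1.29 with ENU and 0.77 with EtOH, and from -0.16 to 0.12 with AAT, DMBA and DMN. The alkylating agents exceeded the aromatic chemicals by 0.84 (SE 0.60, adjusted p = 0.759) for Tsc22d3 and by 0.65 (SE 0.55, adjusted p = 0.818) for Ppp1r3c, neither called.

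The remaining members, Irs2 and Ppargc1a, showed no common direction. Irs2, an adaptor of the insulin receptor, was near the floor, above it on 46 of the 52 arrays. Its ratios at 4 h ran from -1.08 with ENU, whose array was at the floor, to 1.61 with DPN, whose control was at the floor. Ppargc1a, a coactivator of gluconeogenic genes, had ratios from -0.52 with ENU to 0.47 with AAT. The second probe set of Ppargc1a was above the floor on all 52 arrays, and the other 3 on 20, 11 and 8.

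Read by chemical, the ratios of the 10 members at 4 h were highest with DPN and ENU. The median ratio over the members was 1.35 with DPN, with all 10 above 0 and 6 above 1, and 0.97 with ENU, with 8 above 0. It was 0.43 with AAT, 0.33 with DBP, 0.20 with DMBA and 0.11 with DMN, and 0.37 with EtOH and 0.11 with PB. Over all 10755 genes the medians of the same arrays lay between -0.04 and 0.02, and with DPN 2.36% of genes were above 1. DMN and DPN are dialkylnitrosamines that differ in the length of their alkyl groups, but they were given at different doses, so their values are only set side by side. Ppp1r3c had ratios of 0.84 and 2.45, Ddit4 of 0.66 and 1.97, Tsc22d3 of 0.12 and 1.39 with DMN and DPN.

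Other genes of these pathways had smaller differences as groups at 4 h, and none was called in any list in the genotoxic comparison. Over all genes the median was 0.01 and 52.7% were higher. Of the members, 8 of 10 were higher, with a median of 0.61. Of 16 other glucocorticoid target genes 15 were higher, with a median of 0.28. Dusp1, a phosphatase of MAP kinases, had a mean of 1.02 (SE 0.34), and Lcn2, an acute phase protein, was the exception in sign at -1.21 (SE 0.90). Of 17 other fasting genes 11 were higher, with a median of 0.10, and Acot1 (0.77, SE 0.40) and Slc25a25 (0.71, SE 0.16) had the largest values. Of 13 genes that insulin or feeding induces 6 were higher, with the lipogenic Thrsp at 0.65 and the lipid transfer protein Pltp at -0.17. Of 13 glycogen genes 5 were higher with a median of -0.06, with Stbd1, which binds glycogen, at 0.64 and the branching enzyme Gbe1 at -0.35. Of 21 regulators 12 were higher, with Trib1 at 0.73 and Ppara at -0.51. Of 16 clock genes 7 were higher, with Nr1d1 at -0.86 and Per1, which is also a glucocorticoid target, at 0.69.

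Markers of several cell types differed in sign between the genotoxic arrays and the controls at 4 h, none of them called. Of 9 measured Kupffer cell markers 8 were lower, and their summed signal was 2495 to 3566 against 2626 to 4195 in the controls. Of 8 endothelial markers 7 were lower, with sums of 1353 to 1554 against 1480 to 1752. Of 8 hepatocyte markers 7 were higher, with sums of 66665 to 98602 against 61772 to 89436, and all 4 kidney markers were lower. Fewer markers were measured for stellate cells (1 of 6 higher), lymphocytes (3 of 7), bile duct (1 of 3), pancreatic acinar cells (2 of 5) and adipocytes (2 of 2). Mostly at the floor were 1 Kupffer cell, 2 lymphocyte, 1 stellate cell, 1 kidney and all 3 bile duct markers, so their signs count for little. The ranges overlapped in each of the 3 lists with sums given. In whole tissue, fewer cells of a type and less RNA per cell cannot be told apart, and the part of these markers in the result was not tested.

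At 20 h the pattern differed from gene to gene. Ratios were above 0 with all 6 genotoxic chemicals for 3 of the 19 member probe sets, both of Fkbp5 and 1 of Tsc22d3, against 3.67% of all probe sets. The controls of Fkbp5 were close together, at 8.22, 8.43, 8.15, 8.41 and 8.22, and the genotoxic levels were 9.02 (AAT), 9.01 (DMBA), 8.65 (DBP), 8.87 (ENU), 8.39 (DMN) and 9.13 (DPN). All but DMN were above every control. The mean ratio was 0.54 (SE 0.12, adjusted p = 0.965), and EtOH and PB were at 8.37 and 8.08. G6pc, high at 4 h, had genotoxic ratios of -1.65 (AAT), -0.54 (DMBA), -0.90 (DBP), -1.30 (ENU), 0.02 (DMN) and -0.17 (DPN) at 20 h, with a mean of -0.67 (SE 0.29, adjusted p = 0.965). The genotoxic levels of G6pc, from 9.64 to 11.24, reached up into the controls, which were between 11.13 and 11.76.

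The levels of Ddit4 at 20 h are given by class of the genotoxic chemicals. The alkylating agents had levels of 8.16 (ENU), 8.38 (DMN) and 8.48 (DPN), and the aromatic chemicals 7.15 (AAT), 7.52 (DMBA) and 6.95 (DBP). The 2 sets did not overlap, and the controls were between 7.08 and 7.99. How many of all probe sets separate in this way was not counted, so the separation is given only as a description. The aromatic chemicals shared the olive oil control, so class and control set cannot be told apart. The difference of the ratios, alkylating minus aromatic, was 1.44 (SE 0.38, adjusted p = 0.967), not called. At 20 h 0% of all probe sets were called for the genotoxic chemicals, 0.153% for the non-genotoxic, 0.114% for genotoxic minus non-genotoxic and 0.0981% for alkylating minus aromatic, and no member was among them. At 4 h the last 3 of these shares were 0.136%, 0.104% and 0.125%, again with no member.

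At 14 days Ddit4 was above its control with 7 of the 8 chemicals. The first probe sets of Tat, Pck1, Fkbp5, Tsc22d3 and Ppargc1a were so too. In the fit of the genotoxic chemicals at that time 8 of the 10 members were higher, against 58.9% of all genes. Ddit4 at 14 days was at 6.07, 5.99, 6.52, 5.75 and 5.82 in the controls, and at 7.38 (AAT), 7.13 (DMBA), 6.71 (DBP), 6.49 (ENU), 6.27 (DMN) and 6.99 (DPN) after the genotoxic chemicals. The 4 highest of these were above every control, and EtOH (7.09) and PB (6.75) were too. The genotoxic mean ratios were 0.67 (SE 0.25, adjusted p = 0.403) for Ddit4, 0.69 (SE 0.30, adjusted p = 0.42) for Sgk1 and 0.37 (SE 0.15, adjusted p = 0.41) for Pck1. DMN was below its control for 7 of the 10 members at that time, but on that array only 36.6% of all genes were above the control. The first probe set of Fkbp5 was the only member probe set with all 6 ratios above 0, from 0.28 to 1.09, against 4.45% of all probe sets. The second probe set of Fkbp5 did not follow it, with 3 of 6 ratios above 0, from -0.25 to 0.89. At 28 days no member probe set had all 6 above 0, against 2.75%.

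EtOH at 28 days had a median of 0.55 over the members, with 3 of the 10 above 1, where 1.61% of all genes were. These were Ddit4 at 1.62, Tsc22d3 at 1.47 and Fkbp5 at 1.10, each from 1 array against 1 control. The mean of both non-genotoxic chemicals for Tsc22d3 was 0.94 (SE 0.40, adjusted p = 0.327). DMBA gave 1.31 for Fkbp5 and DPN 1.26 for Sgk1 at 28 days. No member was called in any of the class comparisons at these times. At 14 days the shares of all probe sets called were 0% for genotoxic, 0.12% for non-genotoxic, 0.0599% for genotoxic minus non-genotoxic and 0.0436% for alkylating minus aromatic. At 28 days they were 0%, 1.02%, 0.518% and 0.0218% in the same order. Over the 15 class comparisons beside that of the genotoxic chemicals at 4 h, from 0 to 5 of the 19 member probe sets had an unadjusted p under 0.05. The counts of 5, for the genotoxic chemicals at 14 days, and 4, for the non-genotoxic at 28 days, stood beside 11.8% and 15.5% of all probe sets.

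**Figure D3:**
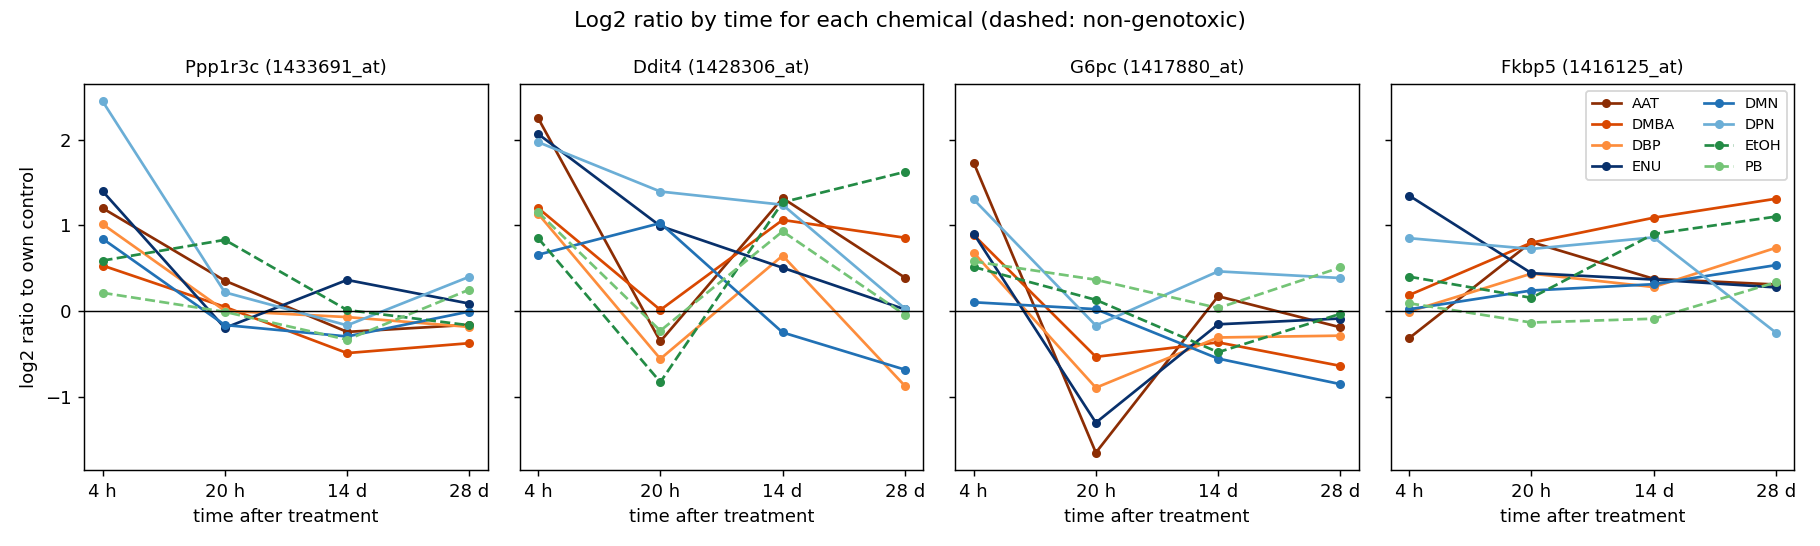
Log2 ratio to the own vehicle control (vertical axis) against time after the dose (horizontal axis, 4 h, 20 h, 14 days and 28 days, not to scale) for Ppp1r3c, Ddit4, G6pc and Fkbp5, with 1 line per chemical (dashed for the non-genotoxic) and 1 array per point. The Ppp1r3c ratios of the genotoxic chemicals, 0.53 to 2.45 at 4 h, lie between -0.20 and 0.35 at 20 h.

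The 4 h response of Ppp1r3c was larger than its later ratios. At 20 h the ratios of Ppp1r3c were 0.35 (AAT), 0.05 (DMBA), 0.00 (DBP), -0.20 (ENU), -0.16 (DMN) and 0.22 (DPN), all below the lowest at 4 h. The genotoxic ratio at 4 h exceeded the mean of the 3 later times by 1.37 (SE 0.22, limma adjusted p = 0.017) in the fit of all arrays, and this was the only call among all probe sets (0.00545%). The second probe set of Ppp1r3c gave 1.58 (SE 0.43, limma adjusted p = 0.37), not called. The same difference was 1.22 (SE 0.28, adjusted p = 0.273) for G6pc and 1.14 (SE 0.39, adjusted p = 0.506) for Ddit4. The fit of all arrays takes 1 spread from all times, so its SE does not measure that at 4 h alone. In the fit of the 4 h arrays the first probe set of Ppp1r3c had an SE of 0.27 for the genotoxic mean. The call of Ppp1r3c was lost under 8 of 19 alternatives. These were the values as deposited, no filter, no control-set block, and leaving out AAT, DBP, ENU, DMN or DPN. With 1 of these chemicals left out its limma adjusted p ran from 0.058 to 0.456. Over all 19 alternatives the value stayed between 1.11 and 1.48.

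The vehicle controls themselves differed by time, and among the 10 members Fkbp5 had the largest difference. Its controls were at 10.29, 8.91, 8.70, 9.48 and 9.92 at 4 h, at 7.85, 7.67, 7.61, 7.59 and 8.08 at 14 days and at 7.92, 7.81, 7.74, 8.07 and 7.64 at 28 days. With the 20 h values given above, every later control was below every control at 4 h. The means were 9.46 ± 0.67 at 4 h, 8.28 ± 0.13 at 20 h, 7.76 ± 0.21 at 14 days and 7.84 ± 0.17 at 28 days (SD, n = 5 arrays of pooled RNA). Fkbp5 fell by 1.70 from 4 h to 14 days (SE 0.22, limma adjusted p = 0.001) and by 1.62 to 28 days (SE 0.22, adjusted p = 0.009). Between 4 h and 20 h the difference was -1.18 (SE 0.22, adjusted p = 0.098), not called. No other member probe set had all its 20 h controls below all at 4 h, which 0.425% of all probe sets did. The second probe set gave -1.05 at 14 days (SE 0.34, adjusted p = 0.061) and -1.37 at 28 days (SE 0.34, adjusted p = 0.166).

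**Figure D4:**
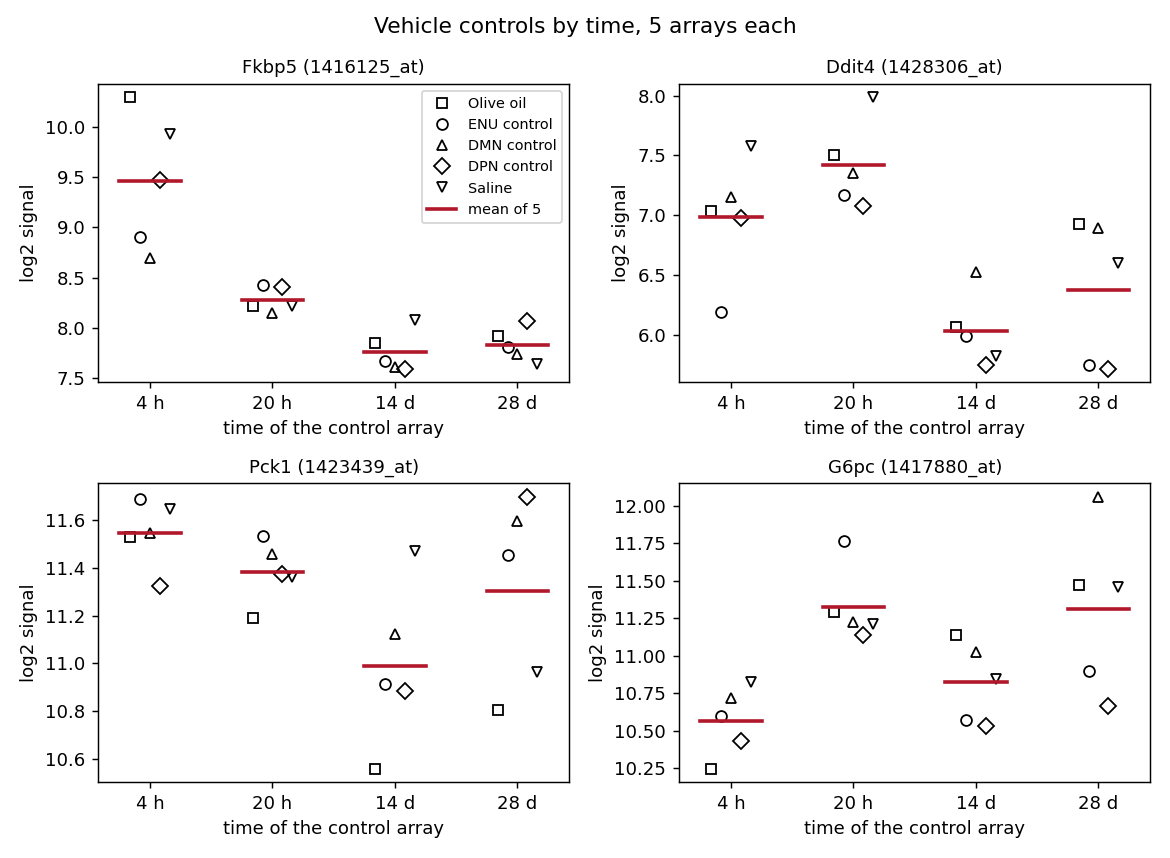
Log2 signal (vertical axis) of the first probe set of Fkbp5, Ddit4, Pck1 and G6pc in the 5 vehicle controls at each time (horizontal axis), each point 1 array and each horizontal bar the mean of 5. In Fkbp5 the controls at 4 h (8.70 to 10.29) lie above all later ones (7.59 to 8.43).

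Ddit4 and Pck1 also passed the test between the controls at 14 days and 4 h. Ddit4 fell by 0.96 (SE 0.28, adjusted p = 0.039), from 6.20 to 7.58 at 4 h to 5.75 to 6.52 at 14 days, so the ranges overlapped. Pck1 fell by 0.56 (SE 0.17, adjusted p = 0.048), from 11.32 to 11.69 at 4 h to 10.56 to 11.47 at 14 days, also with overlap. With Fkbp5 they made 3 of the 19 member probe sets called, against 8.29% of all. At 28 days against 4 h Fkbp5 was the 1 call, against 0.104% of all probe sets, and at 20 h against 4 h there was none (0.0218% of all called, limma). At an unadjusted p under 0.05 there were 6 member probe sets in that comparison, against 6.15% of all. Between 28 days and 14 days 1 member probe set was called, the third of Tsc22d3, against 14.4% of all. Its controls were at 6.25, 6.19, 6.94, 6.46 and 6.69 at 14 days and 7.11, 6.91, 7.26, 7.18 and 6.84 at 28 days, overlapping only through the DMN control at 14 days, and it rose by 0.55 (SE 0.17, adjusted p = 0.038). The first probe set of that gene gave 0.48 (SE 0.19, adjusted p = 0.087).

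These calls differed in how far they held. That of Fkbp5 at 14 days was lost under 1 of 15 alternatives, with values as deposited, and that at 28 days under 4 of 15, with values as deposited or without the olive oil, DPN or saline control. The call of Ddit4 was lost under 9 and that of Pck1 under 11 of 15, and that of Tsc22d3 under 6 of 15. G6pc went the other way, with controls of 10.25 to 10.83 at 4 h and 11.13 to 11.76 at 20 h. The difference was 0.76 (SE 0.21, adjusted p = 0.391), not called. These ranges did not overlap, but how many of all probe sets rose in this way was not counted. The G6pc controls at 28 days, from 10.66 to 12.06, overlapped those at 4 h.

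Other glucocorticoid targets were called in the same comparison of the controls at 14 days with 4 h, where 38.9% of all genes were higher and the median was -0.08. Of the 16 other glucocorticoid targets 3 were called, all lower, where 8.29% of all probe sets were called. The metallothioneins Mt1 and Mt2, which bind zinc and copper and are close in sequence, were both called. Mt1 fell by 3.86 (SE 0.60, adjusted p = 0.002) and Mt2 fell by 3.49 (SE 0.48, adjusted p = 0.00084). Mt1 controls were between 12.19 and 13.19 at 4 h and between 8.06 and 9.70 at 14 days, without overlap, and Mt2 controls between 11.12 and 12.67 and between 8.01 and 8.78. Cebpd, a transcription factor of the acute phase, fell by 1.49 (SE 0.35, adjusted p = 0.019). Of the 17 other fasting genes 3 were called, all lower, namely Gpt2 (-1.10), Cpt1a (-0.60) and Asl (-0.45). The calls of Mt1 and Mt2 were kept under all 15 alternatives, that of Gpt2 was lost under 1 of 15, that of Cebpd under 4 of 14 and those of Cpt1a and Asl each under 6 of 15. At 28 days against 4 h Mt1 fell by 3.72 (adjusted p = 0.017) and Mt2 fell by 3.35 (adjusted p = 0.011), calls lost under 5 and 3 of 15 alternatives. Calls at 14 days were not limited to these lists. They included the regulators Cebpb (-1.11) and Akt1 (-0.40), 2 of 21, and the glycogen branching enzyme Gbe1 (-0.71), 1 of 13, calls lost under 6, 6 and 8 of 15 alternatives, and no gene of the insulin and clock lists was called.

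Markers of other cells differed in the same comparison. Of 9 Kupffer cell markers 7 were lower and 2 were called, Cd5l (-0.62) and Csf1r (-0.34), with a median of -0.34 and summed signals of 2626 to 4195 at 4 h and 2296 to 2895 at 14 days. Of 7 lymphocyte markers 6 were higher, but Cd3e was called lower (-1.07), and Slc34a1 of the kidney list was called higher (0.66). Of the hepatocyte markers 6 of 8 were lower and none was called. The calls of these 4 markers were lost under 7 or 8 of their 14 or 15 alternatives, and the part of the markers in the differences of the controls was not tested.

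Pearson correlations between the members over the 32 ratios ran from -0.32 for G6pc with Fkbp5 and -0.28 for Ppp1r3c with Ppargc1a up to 0.63. These ratios share controls within a chemical set, so correlations are given as descriptions. The closest pairs were Ppp1r3c with G6pc (r = 0.63), Pck1 with Tsc22d3 (0.61), Ddit4 with Tat (0.60) and Tat with Tsc22d3 (0.60). Without the EtOH array at 20 h the closest pair was G6pc with Tat (0.66, and 0.58 with that array). Ppp1r3c with G6pc then stayed at 0.63, and Ddit4 with Tat was 0.55. Among 7360 genes the ratios most like those of Ppp1r3c were of Insig2 (0.80), Tnk2 (0.75), Jun (0.74), Nol11 (0.67) and Tubb2a (0.66). Those most like Ddit4 were Klhl25 (0.65), Zfp281 (0.64), Idh3a (0.61), Them4 (0.61) and Tat. Both lists include the EtOH array at 20 h.

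Where a gene had several probe sets on the array, these were compared as a check on the signal. Over the 32 ratios the 2 probe sets of Ppp1r3c had an r of 0.66 and the same sign in 23, and the 2 of Fkbp5 likewise 0.66 and 23. Without the EtOH array at 20 h the r of Ppp1r3c was 0.94 and that of Fkbp5 was still 0.66. The other 2 probe sets of Tsc22d3 had r of 0.74 and 0.63 with the first, and the same sign in 26 each, and 0.86 and 0.67 without that array. The second probe set of Ppargc1a followed the first less closely, with an r of 0.19 and the same sign in 17, and that of Pck1, at the floor on 27 arrays, had an r of -0.27. Those of Ppp1r3c and Tsc22d3 parted most on the EtOH array at 20 h, where Ppp1r3c had ratios of 0.83 and -2.65, and Tsc22d3 of -0.03 and -2.04 in the first and second probe sets.

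**Figure D5:**
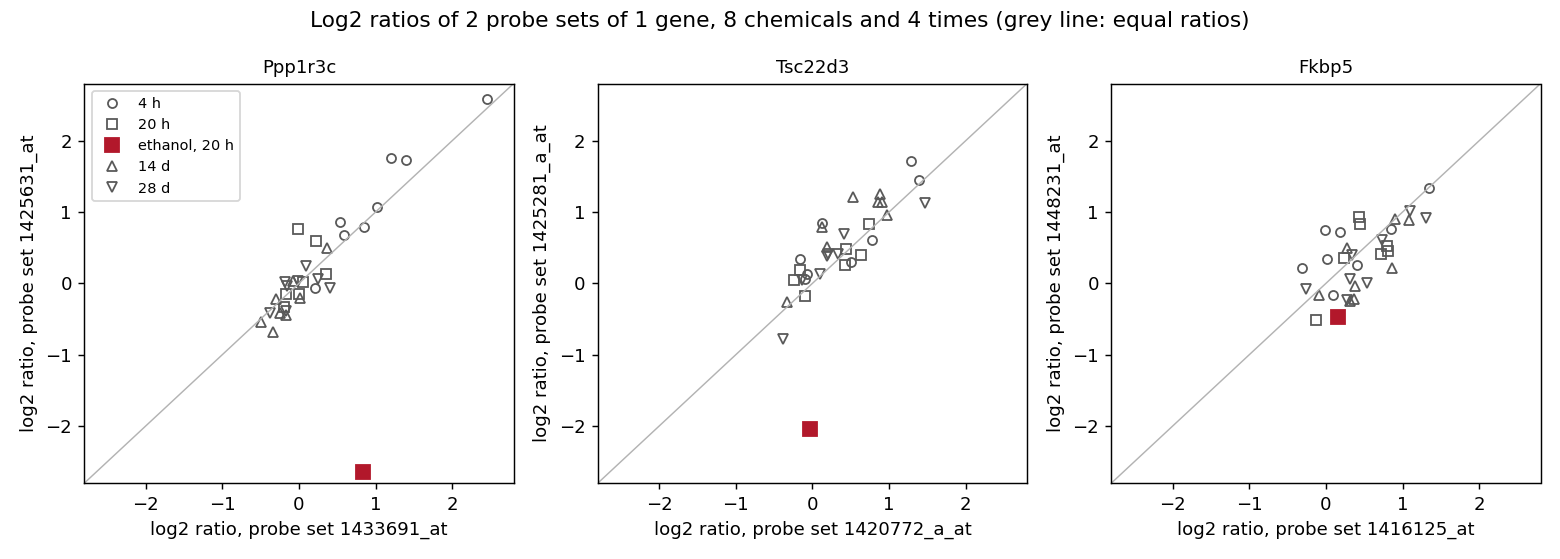
Log2 ratio to the own vehicle control in the first probe set (horizontal axis) against that in another probe set of the same gene (vertical axis), for Ppp1r3c, Tsc22d3 and Fkbp5, each point 1 chemical at 1 time. The EtOH array at 20 h is marked and lies far below the diagonal for Ppp1r3c (0.83 against -2.65).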

How the data were processed

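Per the labels, each of the 52 arrays held liver RNA pooled from 5 mice, and replicates within a group are different chemicals or different vehicle controls, so p-values measure the spread between those arrays. The deposited table held linear signal intensity, 1 column per array and no counts; their precision is limited by the number of arrays. The sources used here do not give the authors' software or its normalization. The methods name the array Mu74A V2, whereas the probe set names belong to another Affymetrix mouse array; genes were named from GEO's platform annotation (20380 probe sets with 1 symbol, 691 with several and 1555 with none, which were not named).

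The 64 Affymetrix control rows were left out, arrays were scaled to their median, signals were floored at the 30th percentile and log2 values were taken. Fits used limma 3.58.1 in R 4.3.3 (lmFit, eBayes with trend): the 13 arrays of each time with the control set as a block (6 residual degrees of freedom, 5 with 3 classes), the 20 controls (16), and all 52 arrays (24). The script was tested on simulated data. Promoters were searched and figures drawn with Python 3.11.15 and matplotlib 3.10.9. The representative probe set was that with the highest mean. Of the other lists, the genes called in a comparison described were named, or else the 2 with the largest difference. The members, lists and tests were chosen with earlier results of these data known. Alternatives changed the scaling, floor, filter, block and left out single chemicals or controls.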

Additional observations from a re-analysis of the deposited data

Results flagged for a closer look

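Groups of 5 controls or 6 genotoxic arrays were examined for single arrays that lie far from the rest of their group, by Dixon's test. Of 80 groups of the representative probe sets 5 passed the limit, where chance gives about 4. The DMN array at 4 h was low for Tat (12.22, next 12.66) and for Fkbp5 (8.72, next 9.98) among the genotoxic arrays. The AAT array at 20 h was low for Pck1 (10.63, next 11.28). Among the controls, the ENU control at 20 h was high for G6pc (11.76, next 11.29) and the DMN control at 28 days was high for Tat (12.57, next 12.20).

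The ratio of the first probe set of Ppp1r3c with the genotoxic chemicals differed between 4 h and the later times by 1.37 on the log2 scale. The difference itself was tested in the fit of all arrays, which takes its spread from all times and not from 4 h alone.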

How the results depend on the processing

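Of 1080 alternative values of single fitted genes 958 kept their direction and side of the threshold, 115 lost it, 6 passed it and 1 reversed: Ddit4 in genotoxic minus non-genotoxic at 4 h, -0.13 with no control-set block. Among counts of called member probe sets, that for controls at 20 h against 4 h went from 0 to 1 with an offset of 16 or with the floor passed on all arrays. That at 14 days against 4 h went from 3 to 1 by quantile normalization or with no filter, to 0 as deposited, and to between 1 and 3 when 1 control set was left out. That at 28 days against 4 h went from 1 to 0 as deposited and was 0 to 1 when a control set was left out. That at 28 days against 14 days went from 1 to 0 by quantile normalization or as deposited, to 2 with 75th percentile scaling or the replicate block, and was 0 to 3 when a control set was left out. For genotoxic at 4 h the count went from 0 to 1 in the fit of all 52 arrays, and for non-genotoxic at 4 h from 0 to 1 as deposited. When 1 chemical was left out, the counts were 0 to 1 for non-genotoxic and for genotoxic minus non-genotoxic at 4 h, 0 to 3 and 0 to 2 for the same comparisons at 20 h (both highest without PB), and 0 to 1 for non-genotoxic at 28 days. The count for 4 h minus later went from 1 to 0 as deposited, with no filter or with no control-set block, was 0 to 2 when 1 chemical was left out, and was 2 without the EtOH and PB set at 20 h and 2 without the EtOH array at 20 h, the last chosen after seeing the data. The cause of these shifts was not tested. Signals near the floor limit Irs2, the second probe set of Pck1 and 3 probe sets of Ppargc1a. With the control set as a replicate block in the fit of the controls, 4 member probe sets were called at 14 days against 4 h (3 without it), the second of Fkbp5 added, and 0 and 1 at 20 h and 28 days against 4 h, as without it. Controls of 1 set at different times deviated together (r over 0.1) in 17 of 30 pairs, with a median r of 0.13 and a range of -0.20 to 0.26. Controls of different sets at different times did so in 14 of 120 pairs, with a median r of -0.03. Controls of a set were thus somewhat alike across times, which the fit of the controls without a block does not take into account.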
